A study of Mus musculus with 2 samples.

Results

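Mir122, Mir216a, Mir216b and Mir217 are miRNA genes best known from the organs that lie beside the stomach, and their levels were read here in the stomach of the newborn mouse. They were chosen by symbol in the GENCODE annotation, and all 4 were among the 1973 miRNA genes of the count tables. MicroRNA sequencing, which reads RNA molecules shorter than 30 nucleotides, was carried out on total RNA from the stomachs of 2 pups of the mouse strain B6NCrl on postnatal day 0. Both pups came from 1 dam, their sex was not collected, and no treatment or mutation is named. The libraries, called pup 1 and pup 2 below, form 1 group, so the data give levels and the spread between littermates, with no contrast between conditions. Each library held the RNA of a whole piece of tissue, in which fewer cells of a type and less RNA per cell cannot be told apart.

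MiRNAs are cut from a hairpin in a longer transcript, and each mature strand finds its target mRNAs mainly through its seed, the bases at positions 2 to 8. Mir122 encodes the most abundant miRNA of hepatocytes, where it acts on cholesterol and lipid metabolism and helps to keep the adult liver state. Mir216a, Mir216b and Mir217 form a cluster that is known from the acinar cells of the pancreas, which secrete digestive enzymes. Liver, pancreas and stomach all arise from the foregut of the embryo and adjoin each other in the newborn.

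RefSeq (GRCm38.p6) held sequences for 3 of the 4 genes, those of the pancreatic cluster. Their mature strands are shown because the 3 genes lie side by side and 2 of them bear nearly the same name, so that the letters show which of them are related. Each is written 5′ to 3′ with the seed in capitals.
miR-216a-5p: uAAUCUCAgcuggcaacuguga
miR-216b-5p: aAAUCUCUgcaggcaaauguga
miR-217-5p: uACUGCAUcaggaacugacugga
miR-216a-3p: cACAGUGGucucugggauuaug
miR-216b-3p: aCACUUACcuguagagauucuu
miR-217-3p: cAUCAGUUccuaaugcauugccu
Aligned from the first base without gaps, the 5p strands of miR-216a and miR-216b were identical at 18 of 22 positions. Counting from 1 at the 5′ end of miR-216a-5p, they differed by U1A, A8U, U11A and C17A. Of these, A8U lies in the seed, so 6 of 7 seed positions were shared and the seeds were not the same. The 3p strands of the pair were identical at 7 of 22 positions, and the 5p strands of miR-216a and miR-217 at 6 of 22. No other gene among the 1738 mature sequences of the RefSeq table carried any of these 6 seeds.

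The hairpins that hold them are given next, with both mature strands in capitals, because the deposited counts are per hairpin and do not tell its strands apart.
Mir216b: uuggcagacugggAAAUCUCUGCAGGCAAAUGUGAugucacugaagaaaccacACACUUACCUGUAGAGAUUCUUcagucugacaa
Mir216a: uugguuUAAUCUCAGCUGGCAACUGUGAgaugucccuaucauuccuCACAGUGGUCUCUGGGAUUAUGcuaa
Mir217: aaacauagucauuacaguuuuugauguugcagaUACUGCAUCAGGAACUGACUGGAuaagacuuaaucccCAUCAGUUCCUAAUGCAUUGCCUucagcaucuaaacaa
All 3 lie on chromosome 11 (GRCm38, GENCODE M21), plus strand. Mir216b (ENSMUSG00000076318.1) lies at 28746191 to 28746276, Mir216a (ENSMUSG00000065539.1) at 28757012 to 28757083 and Mir217 (ENSMUSG00000065415.1) at 28763728 to 28763835. The cluster spans 17645 bp, with 10735 bp between Mir216b and Mir216a and 6644 bp between Mir216a and Mir217. Mir216a and Mir217 sit in introns of the long non-coding RNA gene Gm12082 (28751633 to 28815767, same strand), while Mir216b lies 5356 bp before its annotated start, between genes on its own strand.

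The longest stretch that any of the 4 hairpins shared with another, non-overlapping hairpin was 12 nt, for Mir122, Mir216a and Mir216b, and it was 11 nt for Mir217. All 4 therefore stayed under the 20 nt used here to mark genes whose reads may map to several places. This bears on the counts because 26.0% of all reads of pup 1 and 25.7% of pup 2 mapped to several places and were assigned to no gene. The check compared miRNA hairpins with each other and not with the rest of the genome. A loss of reads of the 4 genes through matches elsewhere was therefore not tested. M21 also places Mir216c on the minus strand across Mir216b. Mir216c was not analysed here, and the opposite-strand counts at Mir216b, as at the other 3 genes, were 0 in both libraries.

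The libraries held 4463355 reads assigned to a miRNA gene on its own strand in pup 1 and 3454655 in pup 2. Levels are counts per 1000000 of these (CPM). For a count of 0 a floor of 3 counts was set as the limit, 0.672 CPM in pup 1 and 0.868 CPM in pup 2. Intervals are exact 95% binomial intervals. They and this floor cover the counting error of reads only and not the spread between animals. Reads copied by PCR were not traced to single molecules, so the error in counting molecules may be larger. The floor is a set limit and not the end of such an interval, which for Mir216a in pup 2 was 1.07 CPM. A read covers a whole mature miRNA, so levels of different genes are compared per molecule read and not per hairpin length. How readily each miRNA enters a library was not corrected for. The labelled tissue was met by the miRNA genes of smooth muscle and squamous forestomach. Their summed levels were 247561 ± 12090 CPM (SD, n = 2) and 112180 ± 3302 CPM. The list for glandular epithelium summed to 7922 ± 330 CPM. It holds Mir192, also a gene of liver and intestine, so its sum does not mark the stomach alone. Of its 4 members, 2 share a stretch with other hairpins.

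Mir122, the hepatocyte gene, was read far above the floor in both stomachs. The gene (ENSMUSG00000065402.1) lies on chromosome 18 between 65248861 and 65248926 (GRCm38), plus strand, and overlaps an exon of the long non-coding RNA gene AC157910.3. It had 916 counts in pup 1, or 205 CPM (192 to 219), and 881 counts in pup 2, or 255 CPM (238 to 272). Pup 2 was the higher library and the counting intervals did not overlap. Mean and SD were 230 ± 35.2 CPM (n = 2), which is 0.0230% of own-strand counts.

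Mir217, the highest gene of the pancreatic cluster, had 5 counts in each library. These came to 1.12 CPM (0.364 to 2.61) in pup 1 and 1.45 CPM (0.470 to 3.38) in pup 2. Mir216b had 3 counts in pup 1, 0.672 CPM (0.139 to 1.96), and 4 in pup 2, 1.16 CPM (0.315 to 2.96). Both genes were thus read a few times in each pup, with intervals that overlapped between pups and between the genes.

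Mir216a had 4 counts in pup 1, 0.896 CPM (0.244 to 2.29), and 0 in pup 2, where the limit of 3 counts is 0.868 CPM. That limit lies within the interval of pup 1, so this depth does not show a difference. Without a filter on low counts, the two-sided exact binomial test of the pups gave Mir216a a p of 0.13, and 0.40 after Benjamini-Hochberg adjustment over 653 genes.

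**Figure D1:**
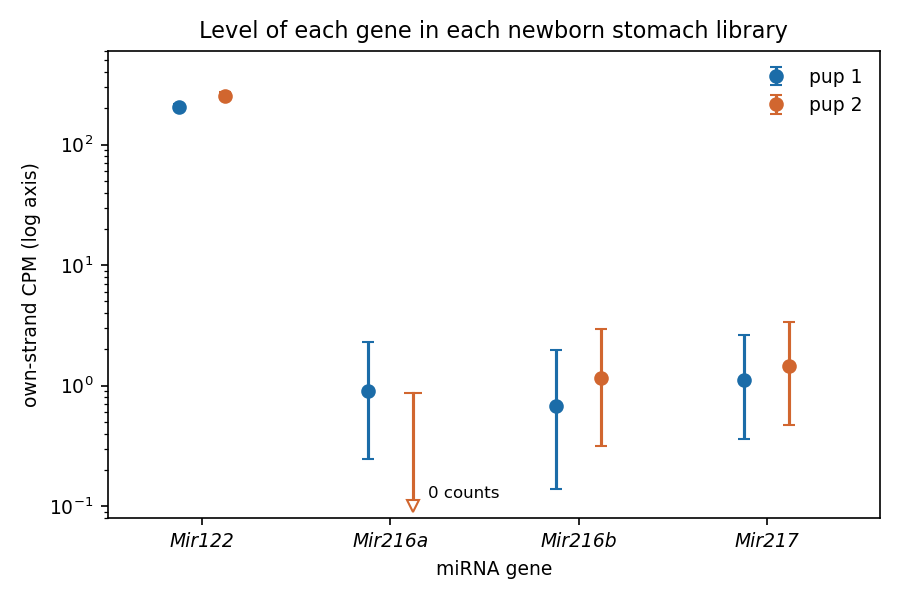
Own-strand CPM (log axis) of each gene in pup 1 and pup 2, with exact 95% binomial intervals as bars; the open triangle marks 0 counts, with a line up to the limit of 3 counts. Mir122 stands at 205 and 255 CPM, while no interval of the other genes reaches above 3.38 CPM.

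Mir122 exceeded the 3 pancreatic genes together by 76.3-fold in pup 1 (interval 43.5 to 148) and 97.9-fold in pup 2 (51.3 to 215). The summed counts of Mir216a, Mir216b and Mir217 were 12 in pup 1 and 9 in pup 2, or 2.69 CPM (1.39 to 4.70) and 2.61 CPM (1.19 to 4.95). On the log2 scale the ratio was 6.43 ± 0.25 (SD, n = 2), a gap far larger than the spread between pups, and with 2 libraries of 1 group no permutation test applies to it. Per nucleotide of hairpin, which divides by annotated length, the ratio was 121-fold.

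Along the pancreatic cluster every gene had at most 5 counts in a library. Summed over the pups, Mir216b had 7 counts, Mir216a 4 and Mir217 10. In pup 1, Mir217, Mir216a and Mir216b followed each other at 5, 4 and 3 counts, and in pup 2 the order was Mir217, Mir216b and Mir216a at 5, 4 and 0 counts. Mean levels were 1.28 ± 0.231 CPM for Mir217, 0.915 ± 0.343 CPM for Mir216b and 0.448 ± 0.634 CPM for Mir216a. The gap between Mir216b and Mir216a was smaller than the larger SD of the pair, that between Mir217 and Mir216b was just above it, and in each pup the counting intervals of all 3 genes overlapped. A difference between Mir216b, before the start of Gm12082, and the pair within its introns was not detectable at this depth.

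**Figure D2:**
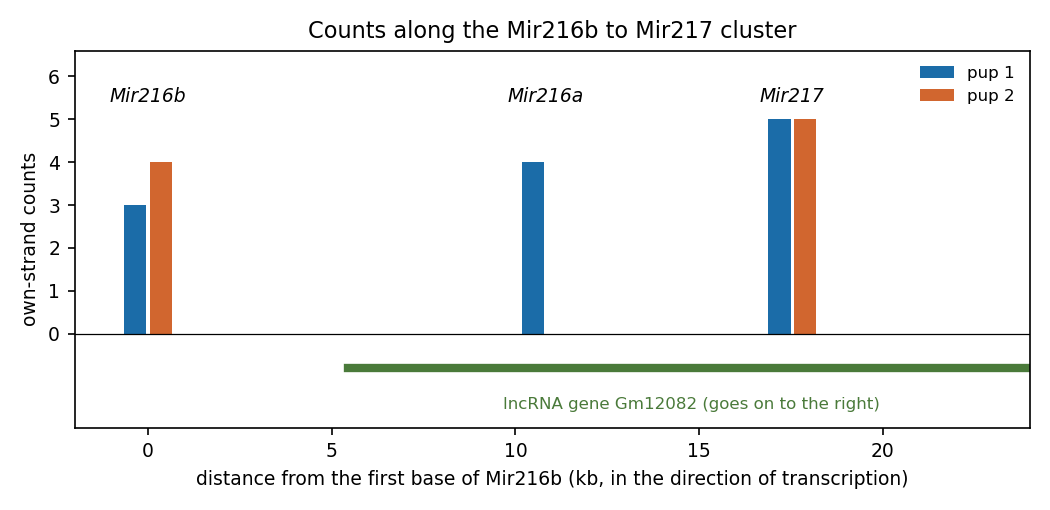
Own-strand counts in each pup (bars, drawn side by side at each gene) against the distance from the first base of Mir216b in kb, with the extent of Gm12082 below. Counts run from 0 for Mir216a in pup 2 to 5 for Mir217 in both pups.

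Detection, set at a minimum of 10 counts in each library, was passed by Mir122 and by none of the pancreatic genes, 1 member of 4, beside 15.5% of all 1973 genes. At a minimum of 1 count in each library, 3 of the 4 genes passed, Mir216a being the exception, beside 25.7% of all genes. Some count in either library was found for all 4 genes, against 33.1% of all genes. The other 1320 genes had none, so the median of all genes was 0 CPM.

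In the order of mean CPM over all genes, Mir122 took place 134, Mir217 place 365, Mir216b place 397 and Mir216a place 465. Mir122 lay above the median of the 305 detected genes, 166 CPM, and above 93.2% of all genes. Mir217, Mir216b and Mir216a lay below the median of the 653 genes with any count, 2.17 CPM. In pup 1, 19 genes including Mir217 had its count of 5, so places at this low end are shared by many genes.

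**Figure D3:**
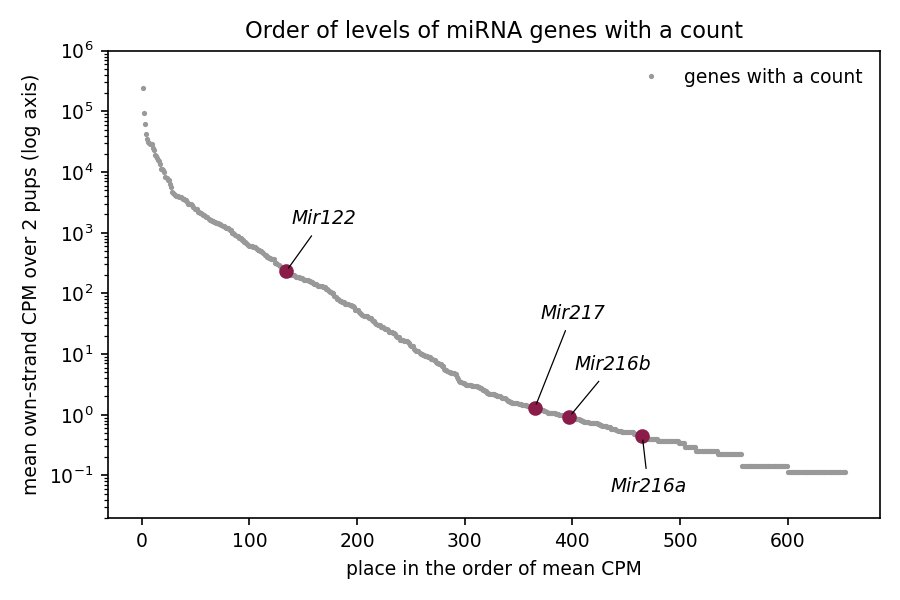
Mean own-strand CPM over both pups (log axis) of the 653 genes with a count, in falling order. Mir122 lies in the upper part at place 134, and Mir217, Mir216b and Mir216a lie in the flat tail at places 365, 397 and 465.

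Next to Mir122 in this order stood Mir671 above (234 ± 81.7 CPM) and Mir501 below (223 ± 23.8 CPM). Neither gap exceeded the SD of either gene, and 10 genes in all had a mean within 1 SD of that of Mir122. By Euclidean distance in log2 CPM over the 2 libraries, the 4 detected genes nearest to Mir122 were Mir501 (0.09), Mir598 (0.21), Mir34c (0.24) and Mir421 (0.28). Mir501 had 921 and 829 counts in pups 1 and 2, close to the values of Mir122 in each. With 2 libraries this measures nearness of level in each pup and nothing further.

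Among 104 genes whose counts over both pups summed to between 4 and 10, as those of all 3 pancreatic genes did, 7 had counts in 1 pup alone. Mir216a was among these 7. Over all genes with a count, 87 were seen in pup 1 alone and 58 in pup 2 alone, pup 1 being the deeper library.

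**Figure D4:**
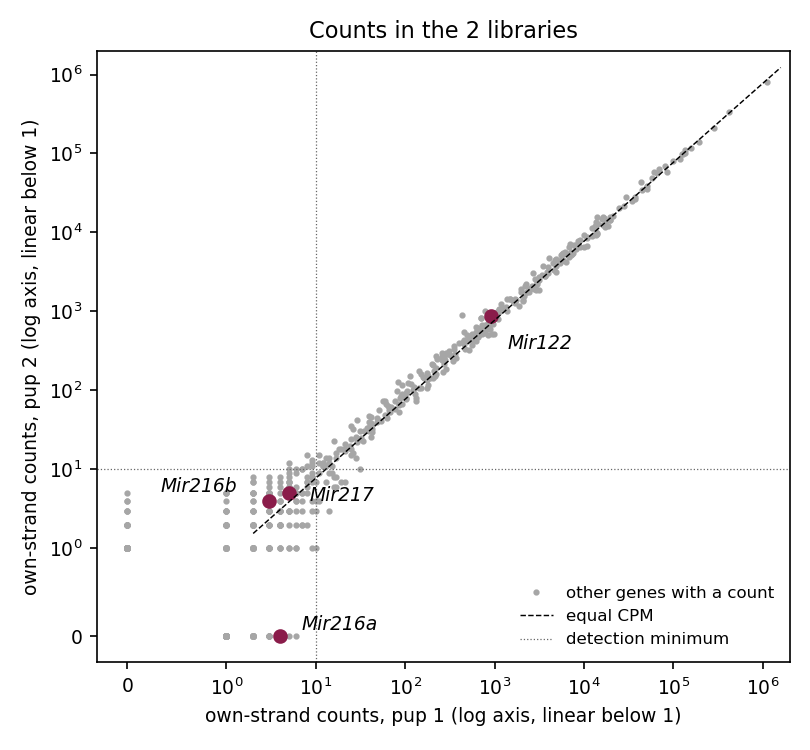
Own-strand counts in pup 2 against pup 1 (log axes, linear below 1) for all genes with a count. The dashed line marks equal CPM and the dotted lines the minimum of 10 counts; Mir122 lies close to the dashed line, and Mir216a lies on the 0 line of pup 2.

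The level of Mir122 in the littermates lay within 1.5-fold. Relative to TMM-scaled library sizes its level in pup 1 against pup 2 gave a log2 ratio of -0.21 (interval -0.35 to -0.08), 1.16-fold higher in pup 2. The two-sided exact binomial test, adjusted over 305 detected genes by the Benjamini-Hochberg method, gave an adjusted p of 0.0053. A call asked for 1.5-fold or more besides an adjusted p under 0.05, so Mir122 was not called. Calls were made for 2.95% of detected genes, and 2.3% were called higher in pup 2. These were 7 genes higher in pup 2 and 2 in pup 1, against 15 and 1 with total counts as library sizes, 6 and 4 with DESeq2 size factors and 5 and 4 without a filter on low counts. An adjusted p under 0.05 alone was reached by 52.1% of detected genes, since this test sees counting error only and compares these 2 libraries. With the common dispersion of edgeR as the error, a coefficient of variation of 11.4%, the adjusted p of Mir122 in edgeR's exact test was 1.00. That dispersion was estimated from the same 2 libraries taken as replicates, so the difference tested is part of its own error. This p therefore shows neither a difference nor its absence. Of the detected genes, 114 had a larger absolute ratio than Mir122.

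Genes that mark related cells were set beside these values from lists of 12 organs or cell types. Mir375, known from pancreatic islets and from gut endocrine cells, had 34281 counts in pup 1 and 24714 in pup 2, 7417 ± 372 CPM. It exceeded Mir122 37.4-fold and 28.1-fold in the pups, whereas the acinar genes lay far below Mir122. Mir7b, also of endocrine cells, stood at 376 ± 59.0 CPM and Mir7-1, which shares a stretch of 20 nt with another hairpin, at 74.6 ± 15.2 CPM.

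Mir192, a gene of liver, intestine and glandular stomach, had 12426 and 8979 counts and exceeded Mir122 13.6-fold and 10.2-fold. Mir148a, high in liver and pancreas among other tissues, stood at 1433 ± 199 CPM. Mir802, known from liver, pancreas and intestine, had 222 and 276 counts, 64.8 ± 21.3 CPM, below Mir122 in both pups. By value Mir148a (log2 ratio -0.18) and Mir802 (-0.58) were higher in pup 2, as was Mir122, while the glandular list was split, with Mir192 (0.20) and Mir215 (0.37) higher in pup 1 and Mir194-1 (-0.21) and Mir194-2 (-0.37) higher in pup 2. All 6 genes had an adjusted p under 0.05 in the exact binomial test, as did 52.1% of detected genes. Relative to TMM-scaled library sizes none of the 6 reached 1.5-fold, so none was called. Mir802 came close to that limit. Scaled by total counts, its 79.9 CPM of pup 2 lay more than 1.5-fold above the 49.7 CPM of pup 1. Whether Mir802 reaches the limit therefore depends on the scaling.

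The newborn liver still forms red blood cells, and erythroid genes were therefore read beside Mir122. Mir451a, the main miRNA of red cell precursors, had 92 and 67 counts, or 20.6 and 19.4 CPM, and Mir144, cut from the same transcript, had 85 and 53 counts. Mir486 had 5 and 6 counts. The check for shared stretches left out hairpins that overlap, so a loss of Mir486 reads that map to several places was not tested. As counted, the erythroid list summed to 38.6 ± 3.04 CPM, and Mir122 alone exceeded it 5.96-fold on mean CPM. Between the pups the list's sums were 40.8 and 36.5 CPM. Neither Mir451a (adjusted p = 0.58) nor Mir144 (adjusted p = 0.17) was called in the exact binomial test, and Mir486, too low to be tested, stood at 1.12 and 1.74 CPM.

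Striated muscle genes, which mark another tissue that adjoins the stomach, summed to 183 CPM in pup 1 and 373 CPM in pup 2, with 3 of 8 matched members detected and 4 sharing a stretch with other hairpins. Mir206, of skeletal muscle, had 435 and 914 counts, below Mir122 in pup 1 and about level with it in pup 2. Mir206 was 1 of the 7 genes called higher in pup 2 (log2 ratio -1.34, adjusted p = 3.7e-60, exact binomial test). The other detected members were not called in that test. Mir208b had 351 and 338 counts (log2 ratio -0.21, adjusted p = 0.099), and Mir133b 17 and 16 (-0.18, adjusted p = 0.83). The gap between the sums of the pups thus came mainly from Mir206 and does not stand for the list. Leukocyte genes, with 3 of 3 matched members detected, summed to 563 ± 2.53 CPM, led by Mir223 at 470 ± 15.4 CPM.

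Lists for testis and brain, which do not adjoin the stomach, had the lowest sums, though that of the brain cannot be read as a level. Of 10 germ cell genes of the testis, none of which shares a stretch of 20 nt, 2 had any count, Mir741 (1 and 1) and Mir881 (2 and 0), and the list summed to 3 counts in pup 1 and 1 in pup 2. By value the 3 acinar genes, with 12 and 9 counts, were above that sum in both pups. In pup 1 the counting intervals overlapped, since 3 counts reach up to 1.96 CPM and the acinar sum begins at 1.39 CPM. For pup 2 no interval of the testis sum was computed. Of 5 matched brain genes, Mir9-3 alone had counts (1 and 3), but all 5 share a stretch of 20 nt with other hairpins. The part of attached liver or pancreas tissue, of blood, and of the stomach's own cells in the counts of Mir122 and of the acinar genes was not tested.

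**Figure D5:**
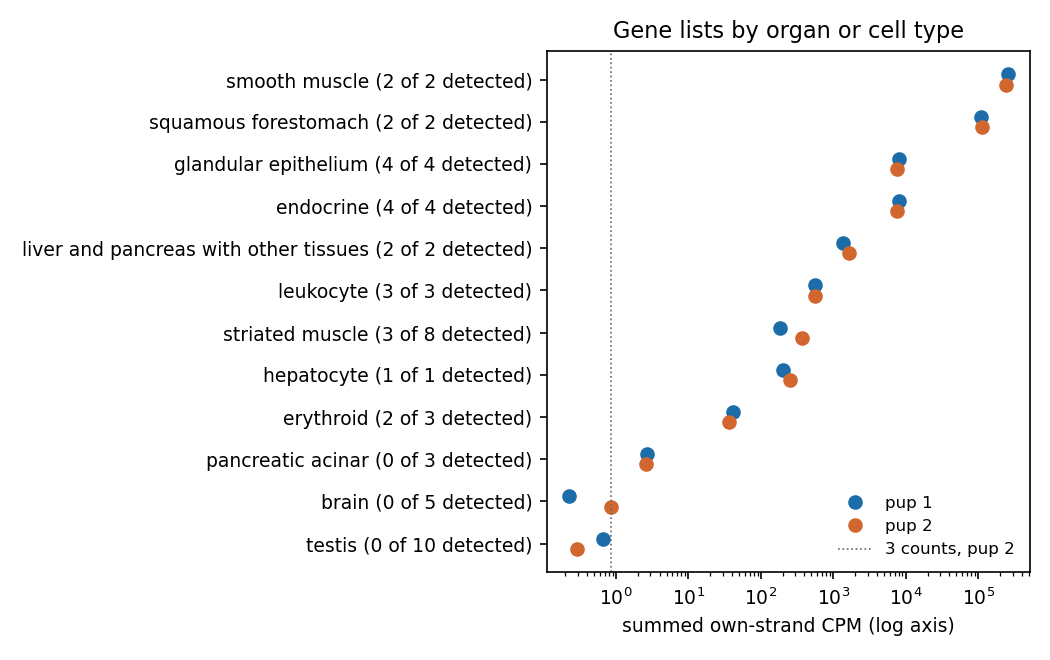
Summed own-strand CPM (log axis) of each gene list in pup 1 and pup 2, with the number of detected genes beside its name; the dotted line is 3 counts in pup 2. The hepatocyte list (Mir122) lies at 205 and 255 CPM, and the acinar list at 2.69 and 2.61 CPM lies between the erythroid list and the lists of brain and testis.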

How the data were processed

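Small RNA from 2 newborn stomachs was analysed as 1 group. Per the description files deposited with the tables, reads were placed on mm10 with annotation release M4. For the aligner and the counting tool, names were not given in the sources used here. The authors deposited raw read counts per miRNA gene, without regard to strand and for each strand, with no normalization. The strand column with the larger total (97.7% and 97.8% of gene counts) was taken as the gene's own. Rows that name no gene, 36.5% and 36.3% of all reads, stayed out of totals.

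Of 1973 identifiers, 1894 matched GENCODE M21 without their version, all 4 members among them. Hairpins were compared through M21 transcripts. The pups were compared with edgeR 4.0.16 TMM scaling and exact binomial tests. DESeq2 1.42.0 gave other size factors. Python 3.11.15, scipy 1.17.1 and R 4.3.3 were used. On simulated counts with 200 changed genes, run on 295 genes, the pup comparison called 89 of 95 genes changed 2-fold, 97 of 97 changed 4-fold and 0 of 103 unchanged. The simulated counts held counting error only and no spread between animals, so they do not give the rate of false calls between these pups.

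The members, lists and tests were chosen with earlier results of these data known. Named genes are the 4 members, the 4 detected genes nearest to Mir122, and up to 3 leading genes of each list. Mir194-1, which lies outside the 3 leading genes of the glandular list, was named besides. Mir671 was named after its values were seen. Alternatives were other totals, strands, minimums, length scaling and leaving out each library.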

Additional observations from a re-analysis of the deposited data

How the results depend on the processing

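Of 62 alternative values, 40 stayed within the spread of the pups or kept their call, 22 moved and 0 changed direction. Part of this was fixed in advance. With 2 libraries, leaving 1 out moves a mean by less than the SD, so levels and ratios without a library had to stay. A change of direction could be recorded only for the 5 alternatives of the pup ratio of Mir122. These counts are therefore no measure of robustness. Over all reads in the tables, the mean levels were 143 CPM for Mir122, 0.798 for Mir217 and 0.569 for Mir216b. With Mir143, the most abundant gene, left out of the total, Mir122 stood at 303 CPM and Mir217 at 1.69. Per hairpin nucleotide, Mir217 stood at 0.889 CPM, places became 125 for Mir122 and 393 for Mir217, and Mir122 exceeded the acinar sum 121-fold. Without regard to strand the places were 143 and 375. Among the 975 genes sharing no stretch they were 110 for Mir122, 284 for Mir217 and 311 for Mir216b. Leaving out each library in turn gave places from 134 to 138 for Mir122, 355 to 362 for Mir217, 377 to 404 for Mir216b and 381 to 567 for Mir216a. It gave levels from 205 to 255 CPM for Mir122, 1.12 to 1.45 for Mir217, 0.672 to 1.16 for Mir216b and 0 to 0.896 for Mir216a, and ratios of Mir122 to the acinar sum from 76.3 to 97.9. The number of detected members became 2 at a minimum of 5 counts in each library or 10 over both, where Mir217 joined Mir122, and 3 at a minimum of 1 in each. The pup ratio of Mir122 ran from -0.31 (total counts) to -0.19 (DESeq2 size factors, or no filter) on the log2 scale, with adjusted p from 1.5e-05 to 1.00, and was called under none of the 5 alternatives. Total counts moved the median ratio of detected genes from -0.02 to -0.13. The number of genes called between pups was 9, 16 with total counts and 1 with edgeR's common dispersion. That dispersion came from the same 2 libraries, and with it 16 genes had an unadjusted p under 0.05 in edgeR's exact test. The cause of these moves was not tested, beyond what each setting changes by construction. No paired analysis was possible because the libraries form 1 group, and the pup comparison leaves no library to omit. Counts of 0 to 5 give the pancreatic genes intervals wider than their levels.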
